A study of Mus musculus with 10 samples.

Results

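The proliferating tumor cells of E0771 mammary tumors are described here by their RNA. Single-cell RNA was counted in 10 droplet libraries, in which a barcode marks the cell and a random tag, the UMI, marks each captured RNA molecule, so that 1 UMI stands for 1 molecule. A barcode was taken as a proliferating tumor cell when it held at least 3 UMIs of 5 tumor genes (Cdh13, Pvt1, Esx1, Fmnl2 and Aebp1), 0 UMIs of 6 immune genes (Ptprc, C1qa, C1qb, C1qc, Csf1r and Skap1), fewer than 3 UMIs of 9 interferon genes (Ifit1, Ifit2, Ifit3, Rsad2, Usp18, Herc6, Ddx60, Gbp3 and Parp14) and at least 3 UMIs of 6 proliferation genes (Mki67, Top2a, Cenpe, Cenpf, Kif11 and Anln). Cells had to hold 200 to 7000 genes, with mitochondrial UMIs making up no more than 10%. Of 65298 such cells 4510 met the rule, or 8.99% of the 50149 tumor cells that met its first 3 conditions. They were set against the 31447 tumor cells of the same libraries without any UMI of the 6 proliferation genes, here called P-negative cells.

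All mice were female C57BL/6 animals of 16 weeks. WT mice and their EC-AGO1-KO littermates, in which VE-Cadherin-Cre deletes floxed Ago1 in endothelial cells, received E0771 mouse mammary carcinoma cells in the fourth mammary fat pad, and tumors were taken after 21 days. The deletion is in the host's vessels, and the injected tumor cells carry intact Ago1. The 5 WT libraries held 5 tumors and the 5 KO libraries held 7, since KO 2+3 and KO 5+6 each pool 2 tumors. Per the labels, batch 1 held 1 library of each genotype (WT B1 and KO B1) and batch 2 held 4 of each.

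A dividing cell copies its DNA in S phase, prepares for division in G2 and separates its chromosomes on the spindle in mitosis. Transcription follows this order: E2F factors drive the replication genes, while the later wave of mitotic genes is repressed by the DREAM complex in resting and G1 cells and then driven by the MuvB core of that complex with B-Myb and FoxM1, through promoter elements called the cell cycle genes homology region (CHR) and the CCAAT box. Ki67, the protein made from Mki67, is the usual stain for dividing cells in breast tumors, while Top2a untangles DNA, Cenpe and Cenpf act at kinetochores, Kif11 pushes spindle poles apart and Anln builds the cleavage furrow.

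The libraries held 8323896 to 10591577 UMIs, but these were spread over few cells in batch 1 and many in batch 2. The median was 4049 UMIs per cell in WT B1 and 3862 in KO B1, and 595 to 1142 in the 8 libraries of batch 2, where WT 5 was the deepest. Any 2 libraries shared at most 28 barcodes (WT 4 and KO 1), and the largest share of the smaller library was 0.502% (6 barcodes of WT B1 and WT 4). Because the rule asks for 3 molecules, depth enters it directly. In batch 1 the 406 proliferating cells had a median of 12422 UMIs and the 150 P-negative cells 8586.5, and in batch 2 the 4104 proliferating cells had 1544 and the 31297 P-negative cells 653. For this reason the comparisons below were also made with proliferating and P-negative cells matched on UMIs per cell, and the shares with cells thinned to equal numbers of UMIs.

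The 6 genes that chose the cells contributed unequally, which is given as description. Of the 4510 cells, 79.4% held a UMI of Top2a, 62.6% of Anln, 50.9% of Kif11, 39.7% of Cenpe and 36.9% of Cenpf. Mki67 was the sparsest marker, with a UMI in 10.4% of the cells, 35.5% in batch 1 and 7.94% in batch 2. Top2a alone gave 40.4% of the proliferation UMIs in batch 1 and 35.4% in batch 2, and Mki67 gave 3.66% and 2.06%. The next largest contributor differed between the batches, being Cenpf in batch 1 (21.7%) and Anln in batch 2 (22.9%). As background, cells with at least 3 UMIs of the immune genes and none of the tumor genes held a UMI of Top2a in 7.82% of 358 cells in batch 1 and 6.25% of 96 cells in batch 2, and of Mki67 in 7.82% and 4.17%, at median depths of 2470 and 405 UMIs. Immune cells can divide, so these shares may hold free RNA, RNA of their own or both, which were not separated. The proliferating cells were chosen for UMIs of these genes and were deeper, so their shares were not tested against this background.

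Most cells were chosen by more than 1 gene. At least 3 different genes of the 6 were seen in 83.3% of the proliferating cells of batch 1 and in 56.4% of those of batch 2, and a single gene carried 3.20% and 5.34%. On the 4 markers Mki67, Top2a, Cenpe and Cenpf alone, 92.1% of the batch 1 cells and 42.5% of the batch 2 cells would have reached 3 UMIs, and 190 cells of batch 2 (4.63%) held none of the 4. The threshold itself cut through a continuous range: 2030 cells of batch 2 lay just inside it with 3 UMIs (median 1327 UMIs in all) and 4257 just outside it with 2 (median 1058), and in batch 1 the numbers were 32 and 63.

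**Figure D1:**
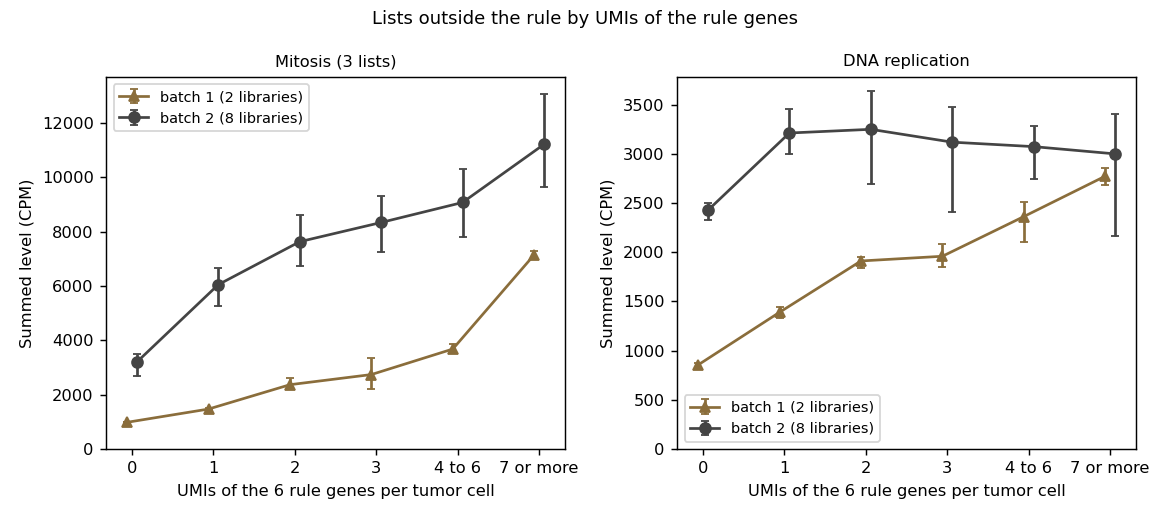
Summed level of the mitosis genes (3 lists) and of the DNA replication genes, in CPM over all cells of a stratum, against the number of UMIs of the 6 proliferation genes in a tumor cell. Points are the pooled cells of batch 1 (2 libraries) and batch 2 (8 libraries), error bars run from the lowest to the highest library, and the genes of the rule are not among those plotted. The mitosis level climbs from 976 to 7151 CPM in batch 1 and from 3199 to 11219 CPM in batch 2, while the replication level climbs from 854 to 2775 CPM in batch 1 and in batch 2 is 2428 CPM at 0, 3215 CPM at 1 and 3002 CPM at 7 or more UMIs.

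The label was checked on genes that the rule did not use. Levels are given in CPM, UMIs of a gene for every 1000000 UMIs of the summed cells, here counted without the 26 genes of the rule. The level of 88 mitosis genes, from 3 lists of mitotic kinases, spindle genes and kinetochore genes, stood at 976 CPM in P-negative cells of batch 1, at 2362 CPM in cells with 2 proliferation UMIs, at 2736 CPM in cells with 3 and at 7151 CPM in cells with 7 or more. In batch 2 the levels of the same strata were 3199, 7632, 8340 and 11219 CPM. The level climbed with the proliferation count in both batches, the steps across the threshold were small, and the P-negative cells of batch 2 held a higher mitosis level than those of batch 1. The data thus go with the name of the cells. At a median of 653 UMIs, a P-negative cell of batch 2 that does not cycle and one whose proliferation UMIs were not sampled cannot be told apart.

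The promoters of the genes that mark these cells are shown here because the wave of mitotic genes is defined by short elements close to the start site. The windows are the 100 bases before the RefSeq start site in GRCm38.p6, printed 5′ to 3′ on the strand of the gene. Capitals mark the CHR letters TTTGAA and the CCAAT letters on either strand, so that TTCAAA and ATTGG are the same elements read from the opposite strand. Mki67, Top2a and Kif11 are genes of the rule, and Rrm2, a ribonucleotide reductase subunit, is an S phase gene. Hmmr and Ube2c had the largest rises among called genes outside the rule with a mean of at least 50 CPM. The windows lie at chr7:135716380-135716479 (minus strand) for Mki67, chr11:99024190-99024289 (minus) for Top2a, chr19:37376282-37376381 (plus) for Kif11, chr2:164769829-164769928 (plus) for Ube2c, chr11:40733438-40733537 (minus) for Hmmr and chr12:24708154-24708253 (plus) for Rrm2.
Mki67: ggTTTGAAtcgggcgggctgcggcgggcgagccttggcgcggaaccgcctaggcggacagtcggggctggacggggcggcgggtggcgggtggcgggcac
Top2a: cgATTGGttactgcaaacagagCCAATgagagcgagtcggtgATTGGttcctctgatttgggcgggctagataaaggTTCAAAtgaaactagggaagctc
Kif11: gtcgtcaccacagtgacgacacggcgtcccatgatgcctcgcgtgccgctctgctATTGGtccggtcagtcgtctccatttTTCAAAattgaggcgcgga
Ube2c: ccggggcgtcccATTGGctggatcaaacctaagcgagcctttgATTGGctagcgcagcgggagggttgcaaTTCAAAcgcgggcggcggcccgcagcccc
Hmmr: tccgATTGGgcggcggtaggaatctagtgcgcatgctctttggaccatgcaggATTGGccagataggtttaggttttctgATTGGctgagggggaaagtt
Rrm2: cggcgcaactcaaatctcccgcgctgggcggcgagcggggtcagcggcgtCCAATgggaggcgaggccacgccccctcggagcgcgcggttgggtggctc

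In Top2a, Kif11 and Ube2c a CHR lies within the last 30 bases of the window with CCAAT letters upstream of it. Hmmr has 3 CCAAT matches and Rrm2 has 1, both without CHR letters in these 100 bases, which says only that the letters are not in this window. Over the longer RefSeq window of 300 bases (250 before to 50 after the start), 76 of 91 listed mitosis genes matched with 83 promoters. CHR letters were in 59.0% of these 83, against 17.9% of all 32851 promoters in the table, and CCAAT letters were in 74.7% against 37.4%. Both elements together were in 49.4% against 6.95%. The spindle list held CHR letters most often (77.1% of 35 promoters) and the kinetochore list least of the 3 (37.5% of 24).

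The replication genes differed in their promoters. Of 47 promoters for 40 of 50 listed genes, CHR letters were in 10.6% and CCAAT letters in 53.2%, while 44.7% held one of 4 E2F strings (TTTGGCGC, TTTCGCGC, TTCCCGCC or TTGGCGCC, on both strands, of which the first and the last can overlap), against 3.53% of all promoters and 10.8% of the mitosis promoters. The DNA repair promoters resembled them, with 38.1% of 21 holding an E2F string and 9.52% CHR letters. The glycolysis promoters stood at 10.0% for CHR letters and 37.5% for CCAAT letters, and none of the 40 held an E2F string. All 6 genes of the rule matched, and 5 of their 6 promoters held CHR letters and none an E2F string. These matches are descriptions of letters, and binding was not measured.

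**Figure D2:**
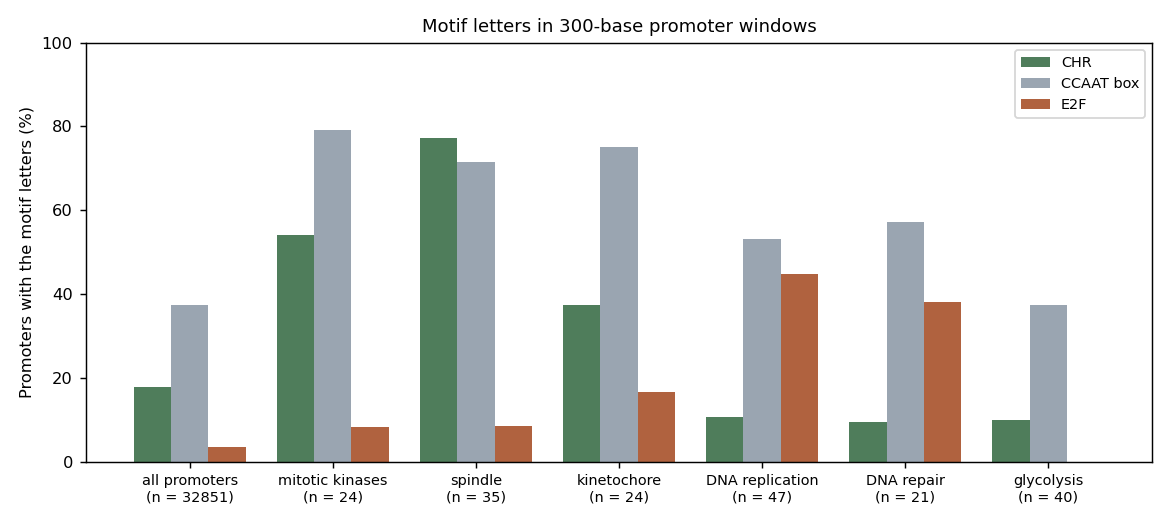
Share of 300-base RefSeq promoters (percent, vertical axis) that hold CHR letters, CCAAT letters or an E2F string, for all promoters in the table and for the promoters of the gene lists. CHR letters are in 54.2% of the mitotic kinase, 77.1% of the spindle, 37.5% of the kinetochore and 10.6% of the replication promoters. E2F strings are in 8.33%, 8.57%, 16.7% and 44.7% of them.

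Whether the deletion of Ago1 in the vessels went with a different share of dividing tumor cells is a question of the design, since the study stained tumor sections for Ki67. By the rule, the share of tumor cells that were proliferating was 54.7% in WT B1 (233 of 426 cells, 95% Wilson interval 49.9 to 59.4%) and 59.2% in KO B1 (173 of 292, 53.5 to 64.7%). In batch 2 the WT shares were 7.64% of 8548 cells in WT 1 (7.09 to 8.22%), 7.61% of 6137 in WT 3 (6.97 to 8.30%), 5.00% of 7966 in WT 4 (4.54 to 5.50%) and 15.4% of 4968 in WT 5 (14.4 to 16.4%). The KO shares were 6.83% of 6221 in KO 1 (6.23 to 7.49%), 11.7% of 4378 in KO 2+3 (10.8 to 12.7%), 8.18% of 5711 in KO 4 (7.49 to 8.92%) and 7.58% of 5502 in KO 5+6 (6.91 to 8.31%). The intervals cover counting error only. The libraries of batch 1 stood far above all others, WT 5, the deepest library of batch 2, was the highest there, and the 2 genotypes overlapped in batch 2.

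The means were 18.1% ± 20.8 in WT and 18.7% ± 22.7 in KO (SD, n = 5 each), a difference of 0.638 points (exact permutation of genotypes inside each batch, two-sided p = 0.814, smallest possible p 0.0143). Within batch 2 alone they were 8.91% ± 4.50 and 8.57% ± 2.15 (n = 4 each), a difference of -0.340 points with an exact permutation p of 0.83. Batch 1, with 1 library a genotype, allowed no test.

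With every tumor cell thinned to 500 UMIs, the share of cells with at least 1 proliferation UMI no longer separated the batches. It was 24.3% in WT B1, 29.2% in KO B1, 29.2% in WT 1, 28.3% in WT 3, 26.5% in WT 4, 26.2% in WT 5, 25.1% in KO 1, 28.1% in KO 2+3, 27.9% in KO 4 and 25.9% in KO 5+6, after 7814 WT and 5057 KO cells below 500 UMIs were left out. The widest interval was that of KO B1 (24.2 to 34.8%). WT B1 was the lowest library and KO B1 the highest, at 29.225% against 29.175% in WT 1. Here the mean was 26.9% ± 1.92 in WT and 27.2% ± 1.72 in KO (SD, n = 5 each, exact permutation p = 0.8).

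The level of the 6 genes in all tumor cells, which needs no threshold, was also near-equal. In CPM, here for every 1000000 UMIs of tumor cells with no gene left out, it was 807 in WT B1, 839 in WT 1, 779 in WT 3, 695 in WT 4 and 714 in WT 5. In the KO libraries it was 930 in KO B1, 695 in KO 1, 811 in KO 2+3, 785 in KO 4 and 691 in KO 5+6. KO B1 was the highest of all and the genotypes overlapped. The means of 767 ± 61.1 and 782 ± 98.4 CPM (SD, n = 5 each) differed by 15.4 (exact permutation p = 0.771, 0.814 after Benjamini-Hochberg adjustment over 4 tests of shares and levels). Actb took 1.80% to 16.5% of the tumor cells' UMIs across libraries, and with it left out of the totals the difference was 8.04 (exact permutation p = 0.886).

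Mki67 RNA alone, the counterpart of the stain, was 29.8 CPM in WT B1, 17.4 in WT 1, 13.6 in WT 3, 17.2 in WT 4 and 17.4 in WT 5, and 34.3 in KO B1, 15.1 in KO 1, 21.2 in KO 2+3, 17.0 in KO 4 and 17.0 in KO 5+6. Both batch 1 libraries were high, and in batch 2 the lowest library was WT and the highest KO. The means were 19.1 ± 6.23 in WT and 20.9 ± 7.80 in KO (SD, n = 5 each, difference 1.83, exact permutation p = 0.286, adjusted 0.571). A difference between genotypes was not detectable in any of these measures, which does not show that the genotypes are alike. A barcode share also cannot report the number of dividing cells in a tumor, since tumor size and the recovery of cells are not in it.

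**Figure D3:**
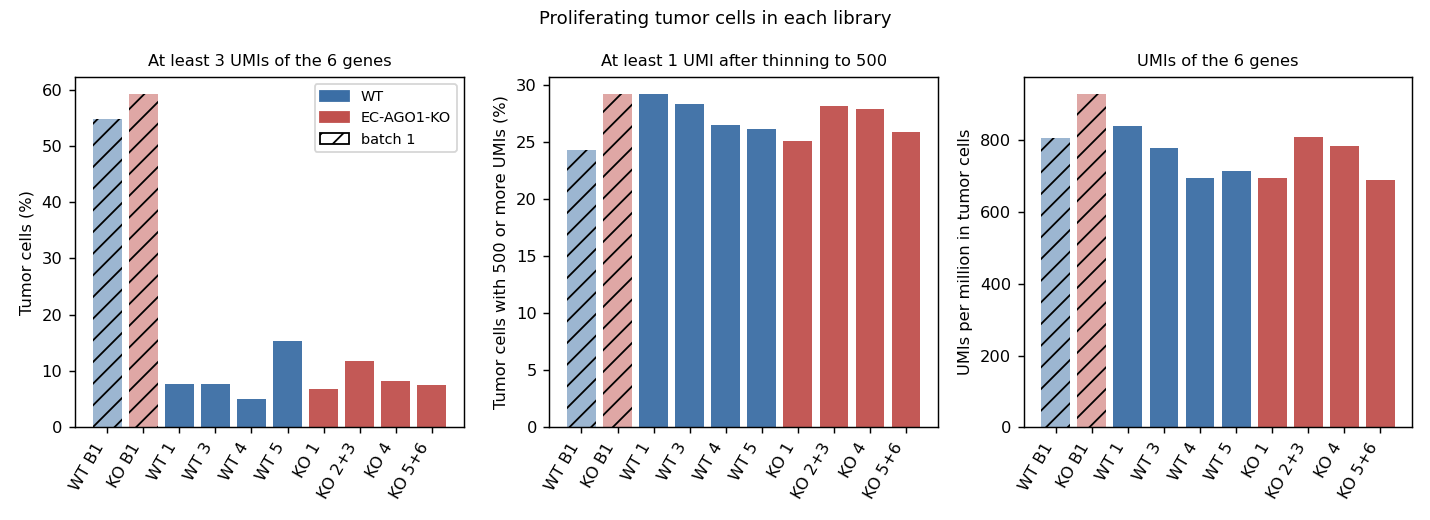
Proliferation of tumor cells in each of the 10 libraries: share of tumor cells that met the rule (percent, left), share with at least 1 proliferation UMI after thinning to 500 UMIs (percent, middle) and level of the 6 proliferation genes in CPM (right). WT bars are blue, KO bars red and batch 1 bars hatched. Batch 1 stands at 54.7% and 59.2% by the rule. After thinning, WT B1 is the lowest library (24.3%) and KO B1 the highest (29.2%). The genotypes overlap in every panel.

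Against P-negative cells of the same library, 1923 of 11294 genes outside the rule passed edgeR's quasi-likelihood test at an adjusted p under 0.05 (17.0%), 1025 higher (9.08%) and 898 lower (7.95%) in proliferating cells. The split rests on single libraries: it was 603 higher to 1499 lower without WT 1, 667 to 1555 without WT 4, 592 to 1561 without WT 5 and 586 to 1605 without KO 2+3, where the median of all genes moved from -0.01 to between -0.10 and -0.11. With cells matched on UMIs, 1232 of 8337 passed, 6.51% higher and 8.26% lower. Matched within batch 1 alone, 7.74% of 7095 genes passed, 4.71% higher and 3.03% lower, and within batch 2 alone 15.6% of 7081, 7.81% in each direction. Since the cells were chosen by 6 mitotic genes, genes that vary with those across cells had to follow, and the values below say which genes did and by how much. Among the 10 largest rises of genes with a mean of at least 50 CPM were Hmmr, Ube2c, Kif14, Sgo2a, Prc1, Kif4, Kctd18, Knl1 and Kifc1, each higher in 10 of 10 libraries.

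Hmmr, a spindle assembly factor, stood at 116 to 193 CPM in proliferating cells (median 154 over 10 libraries) and at 0 to 40.0 CPM in P-negative cells (median 26.9). No library overlapped, and the P-negative cells of the deep batch were nearly empty of it, with 1.37 CPM in WT B1 and 0 in KO B1. The log2 fold change was 2.55 ± 0.12 (SE, n = 10 libraries, adjusted p = 7.71e-18) and 2.79 ± 0.15 with matched cells. Ube2c, the ubiquitin-conjugating enzyme of the anaphase-promoting complex, stood at 114 to 274 CPM (median 159) against 22.8 to 34.2 CPM (median 29.2). Its groups did not overlap either (log2 fold change 2.47 ± 0.10, adjusted p = 2.46e-19).

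Sgo2a, which protects cohesin at centromeres, had the most UMIs of these 9 genes, with 64.7 to 503.7 CPM (median 356) against 2.07 to 105 CPM (median 74.4) and a log2 fold change of 2.26 ± 0.09. Its lowest proliferating library fell below the highest P-negative library, with the lower levels of both classes in batch 1, while it was higher within each library. The kinesins Kif14, Kif4 and Kifc1 rose by 2.30 ± 0.10, 2.17 ± 0.10 and 2.03 ± 0.11 on the log2 scale, and Prc1, which bundles the central spindle, by 2.26 ± 0.12. Knl1, the kinetochore scaffold, rose by 2.05 ± 0.11. Kctd18 rose by 2.11 ± 0.08. Its model in GENCODE M21 (mm10, chr1:57955101-58018956, minus strand) overlaps that of Sgo2a (chr1:57995971-58025899, plus strand), whereas the RefSeq models of the 2 genes do not overlap, so its value is uncertain. Matching on UMIs left these 9 rises at or above their size, from 2.18 for Knl1 to 2.79 for Hmmr.

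**Figure D4:**
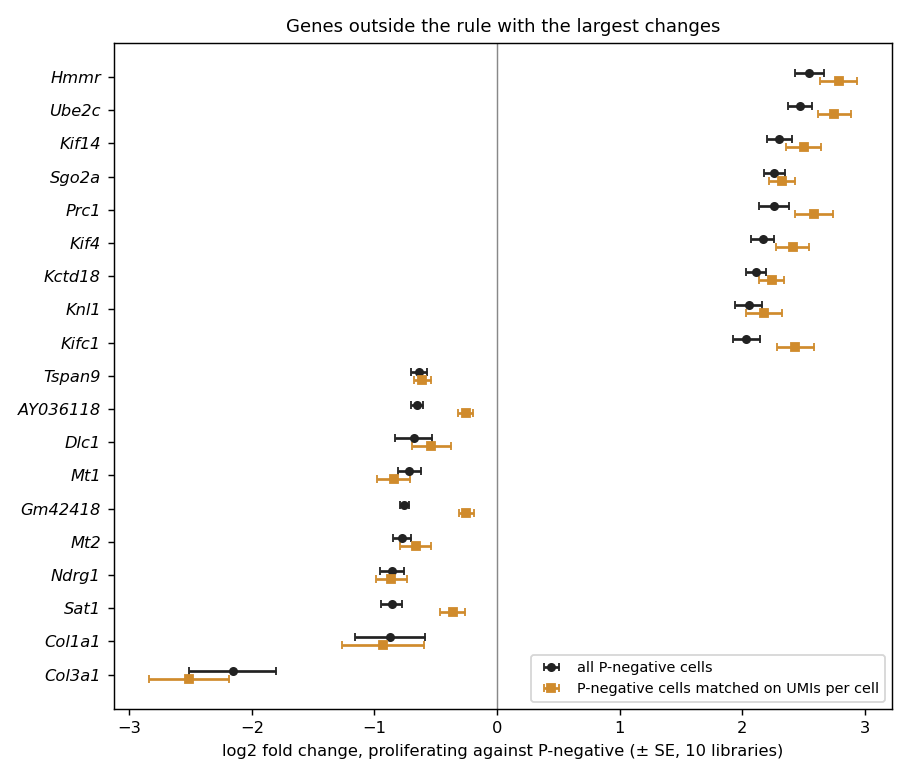
Log2 fold change of proliferating over P-negative tumor cells for 9 of the 10 largest rises and the 10 largest falls among called genes with a mean of at least 50 CPM, with bars of 1 SE over 10 libraries. Black points use all P-negative cells and orange points cells matched on UMIs. The rises lie between 2.03 and 2.55 and do not shrink with matching, whereas the falls of Sat1, Gm42418 and AY036118 do.

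The mitosis lists moved almost as a whole. All 29 mitotic cyclins, kinases and checkpoint genes were called higher (median log2 fold change 1.61, against -0.01 over all genes tested), as were all 35 spindle, kinesin and cytokinesis genes (median 1.78) and 23 of 24 kinetochore and centromere genes (median 1.37). Per library the 3 lists summed to 6299 to 10180 CPM in proliferating cells (median 8847) and to 970 to 3476 CPM in P-negative cells (median 3188), without overlap. The log2 ratio within a library ran from 1.34 to 2.70. With matched cells 86 of 87 were called higher, and the median log2 fold change was 1.96. Over all genes 9.08% were called higher, and 6.51% with matched cells.

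Among the kinases and checkpoint genes, Bub1b, the spindle checkpoint kinase BubR1, rose by 1.91 ± 0.09 on the log2 scale, Cdc25c, the phosphatase that activates Cdk1, by 1.52 ± 0.08, and Mad2l1, which inhibits the anaphase-promoting complex until chromosomes attach, by 1.37 ± 0.11. Of the spindle and cytokinesis list, Ect2, the exchange factor that activates RhoA at the furrow, had the most UMIs, with 135 to 798 CPM (median 677) against 2.74 to 253 CPM (median 195). It was higher in every library, by 1.90 ± 0.09. Citron kinase (Cit) rose by 1.59 ± 0.10, the formin Diaph3 by 1.47 ± 0.08 and the microtubule polymerase Ckap5 by 1.13 ± 0.05. At the kinetochore, Cenpi rose by 1.20 ± 0.09, Zwilch, of the complex that recruits dynein, by 1.15 ± 0.09, and Cenpp by 0.76 ± 0.09.

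Of 30 genes of chromosome structure, 26 were called higher and none lower, against 9.08% and 7.95% of all genes. The median log2 fold change was 0.94. Smc4, a condensin subunit, stood at 354 to 585 CPM (median 501) against 53.5 to 275 CPM (median 205). Every proliferating library lay above every P-negative library, and the log2 fold change was 1.41 ± 0.08. The histone variant H2afz (0.51 ± 0.10), the chromatin protein Hmgb1 (0.40 ± 0.05) and the heterochromatin protein Cbx5 (0.33 ± 0.05) rose by smaller amounts, and H2afz was at 1.27 in batch 1 and 0.22 in batch 2. Replication-dependent histones, whose mRNAs mostly lack the poly(A) tail that the method captures, were sparse in batch 2, where their summed level in proliferating cells was 110 to 186 CPM, but not in batch 1, where it was 1294 CPM in WT B1 and 1396 CPM in KO B1. Of 20 listed, 17 were tested and 14 called higher, against 9.08% of all genes. Hist1h1b, a linker histone, stood at 9.66 to 228 CPM (median 25.9) against 3.77 to 10.1 CPM (median 7.59), with the highest values in batch 1. The ranges met at the edge, it was higher in 10 of 10 libraries, and it rose by 2.31 ± 0.23.

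Of 50 DNA replication genes, which act in S phase, 24 were called higher and none lower, against 9.08% and 7.95% of all genes. The median log2 fold change was 0.46. With matched cells the count was 24 of 45, against 6.51% of all genes, and the median 0.53. In batch 2 alone 15 of 48 were called higher and 2 lower (median 0.18), against 9.68% and 9.27% of all genes. With matched cells in batch 2 alone 16 of 41 were called higher and none lower (median 0.35), against 7.81% of all genes in each direction. The difference from the mitosis lists was not tested, and the cells were chosen by mitotic genes. Rrm2, a subunit of ribonucleotide reductase, stood at 73.0 to 245 CPM (median 191) against 4.14 to 111 CPM (median 94.5). It was higher in all 10 libraries, by 1.18 ± 0.09 on the log2 scale and by 0.85 with matched cells. Atad2, a bromodomain ATPase of replicating chromatin, rose by 0.79 ± 0.09 and Uhrf1, which passes DNA methylation to the new strand, by 0.56 ± 0.08. Pola1, the catalytic subunit of polymerase alpha, rose by 0.25 ± 0.09 (adjusted p = 0.0475), was at 1.44 in batch 1 and 0.13 in batch 2, and did not pass with matched cells (0.19, adjusted p = 0.171).

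In single cells, too, mitosis UMIs outnumbered replication UMIs. In batch 1, proliferating cells held a median of 67.5 UMIs of the mitosis lists and 27 of the replication list, and all of them held both. In batch 2 the medians were 13 and 4, and 94.7% of the cells held a replication UMI. Replication UMIs outnumbered mitosis UMIs in 12.3% of proliferating cells in batch 1 and 6.53% in batch 2, against 38.0% and 31.5% of P-negative cells, which were shallower. Both classes were chosen by UMIs of mitotic genes, so a lower share in proliferating cells was in part fixed by the choice. The mitosis lists also hold 88 genes against 50, and P-negative cells of batch 2 had a median of 1 UMI of each. These shares were not tested. The replication level followed the proliferation count differently in the 2 batches. In batch 1 it was 854 CPM in P-negative cells, 1390 CPM in cells with 1 proliferation UMI and 2775 CPM in cells with 7 or more, climbing at every step. In batch 2 it was 2428 CPM in P-negative cells, 3215 CPM in cells with 1 UMI and 3002 CPM in cells with 7 or more. The difference between the batches in this course was not tested.

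Genes of DNA repair and the replication checkpoint were called higher in 19 of 25 cases and lower in none (median 0.81). Over all genes tested 9.08% were called higher and 7.95% lower. Bard1, the partner of Brca1, rose by 1.23 ± 0.10 and Rad18, a ligase for stalled forks, by 0.79 ± 0.08. Topbp1, which activates the checkpoint kinase Atr, rose by 0.32 ± 0.10, with 1.40 in batch 1 and 0.18 in batch 2, where it did not pass (adjusted p = 0.0549). Fanca, of the Fanconi anemia complex, rose by 0.31 ± 0.06, and its value with matched cells was 0.15 (adjusted p = 0.222).

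Some regulators of entry into the cycle were called higher. Of 24 G1 cyclins, E2F factors and pocket proteins 9 were called higher and 1 lower, against 9.08% and 7.95% of all genes. The gene that fell was Ccnd2, cyclin D2, at 256 to 410 CPM (median 354) in proliferating cells against 342 to 464 CPM (median 410) in P-negative cells. It was lower in 10 of 10 libraries, by 0.20 on the log2 scale (SE 0.05, adjusted p = 0.00144), and its matched value was -0.42. Ccnd1 (0.09 ± 0.06, adjusted p = 0.338) and Cdk6 (-0.09 ± 0.04, adjusted p = 0.178), at a median of 2768 CPM, did not pass. Lin52, a subunit of the MuvB core, rose by 0.48 ± 0.07.

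Of 18 cell cycle inhibitors and p53 targets tested, 4 were called higher and 3 lower, against 9.08% and 7.95% of all genes. Cdkn1b, which encodes the inhibitor p27, was called higher by 0.37 ± 0.05 (adjusted p = 3.2e-06) and stood higher in 9 of 10 libraries, but was at -0.14 in batch 1 (adjusted p = 0.752). With matched cells its value was 0.12 (adjusted p = 0.190). Of the 14 genes tested there 1 was called higher and 1 lower, near the 6.51% and 8.26% of all genes. Trp53 (0.13 ± 0.08), the p53-induced Sesn1 (0.20 ± 0.08) and Mdm2 (-0.16 ± 0.08) did not pass.

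Genes of glycolysis and the hypoxia response were lower or did not pass. Of 29 tested 14 were called lower and none higher, with a median log2 fold change of -0.24. With matched cells 13 of 27 were called lower (median -0.31). Over all genes 7.95% were called lower, and 8.26% with matched cells. Ndrg1, a gene induced by low oxygen, stood at 23.5 to 69.7 CPM (median 31.5) in proliferating cells and at 32.3 to 155 CPM (median 52.4) in P-negative cells. It was lower in each of the 10 libraries, and fell by 0.86 on the log2 scale (SE 0.10, adjusted p = 3.53e-08, matched value -0.86). Hk2, hexokinase 2, stood at 147 to 319 CPM (median 258) against 177 to 442 CPM (median 347). It too was lower in all 10 libraries, by 0.45 (SE 0.05). Gapdh (-0.24 ± 0.04) and Ldha (-0.17 ± 0.05) were called lower, and their matched values of -0.15 and -0.14 were not called (adjusted p = 0.12 and 0.106). Pkm, at 0.05 ± 0.06, did not pass. Within batches the list held 15 called lower of 28 in batch 1 and 9 of 28 in batch 2, against 3.81% and 9.27% of all genes tested there, with medians of -0.54 and -0.15. With matched cells it was 14 of 27 in batch 1 (median -0.50) and 9 of 26 in batch 2 (median -0.15), against 3.03% and 7.81% of all genes.

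Mt1 and Mt2, which encode metallothioneins, small metal-binding proteins, were among the 10 largest falls. Mt2 stood at 26.2 to 318 CPM (median 52.4) against 45.7 to 654 CPM (median 81.4), and Mt1 at 11.2 to 664 CPM (median 34.3) against 22.0 to 1417 CPM (median 41.5), both highest in batch 1. Each was lower in all 10 libraries, with log2 fold changes of -0.78 ± 0.07 and -0.72 ± 0.09, and -0.66 and -0.84 with matched cells. Mt1 was at -1.09 in batch 1 and -0.33 in batch 2. Tspan9, a tetraspanin, fell by 0.63 (SE 0.06) and Dlc1, a RhoGAP, by 0.68 (SE 0.15), and both were called with matched cells. Dlc1 was at -2.19 in batch 1 and -0.40 in batch 2. Sat1, which acetylates polyamines, fell by 0.86 (SE 0.09) over all P-negative cells but had a matched value of -0.36. The noncoding RNAs Gm42418 and AY036118, which overlap the ribosomal RNA locus, had values of -0.76 and -0.65 that shrank to -0.25 and -0.26.

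Immediate early genes, many of which encode transcription factors, are induced within minutes of a stimulus. They were called lower in 9 of 17 cases, against 7.95% of all genes, and higher in none (median -0.32). The number called lower was 6 with matched cells, against 8.26% of all genes. With matched cells 7 of 16 were called lower in batch 1 alone (median -0.45) and 2 of 16 in batch 2 alone (median -0.16), against 3.03% and 7.81% of all genes tested there, and the summed level of the list was higher in proliferating cells of WT 4 and KO 4 both with all and with matched P-negative cells. Of the 3 genes named by their UMIs, Klf2 fell by 0.26 (SE 0.07, adjusted p = 0.00785, matched value -0.21 with adjusted p = 0.0742), while Klf6 (0.06 ± 0.06) and Fosl1 (0.07 ± 0.07) did not pass. Nuclear long noncoding RNAs were called lower in 4 of 7 cases and higher in none, in 2 of 5 with matched cells, and in batch 2 alone 2 of 6 were called lower and 2 higher. Of all genes 7.95% were called lower, and 8.26% with matched cells. In batch 2 alone 9.27% of all genes were called lower and 9.68% higher. Neat1, the scaffold of paraspeckles, stood at 774 to 4537 CPM (median 2768) against 782 to 4777 CPM (median 3150) and was lower in every library, by 0.21 (SE 0.05). Malat1 did not pass (0.18 ± 0.10, adjusted p = 0.268) and had opposite signs in the batches, -0.88 in batch 1 and 0.44 in batch 2.

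Of 83 ribosomal protein genes tested, 36 were called lower and 1, Rps25, higher (median -0.15), against 7.95% and 9.08% of all genes. With matched cells 10 were called lower and none higher (median -0.10), against 8.26% and 6.51% of all genes. In batch 1 alone the median was -0.21 both with all and with matched cells (35 and 13 of 83 called lower), and in batch 2 alone it was -0.16 with all (39 of 83) and -0.01 with matched cells (3 of 80). Of all genes 3.81% and 3.03% were called lower in batch 1, and 9.27% and 7.81% in batch 2. The matched count of batch 2 thus lay below the share of all genes. Rpl37 had a log2 fold change of -0.54 that was -0.15 with matched cells, and Rpl29 one of -0.39 that was -0.05. Of 22 nucleolar genes and Myc targets, 4 were called higher and 1 lower, against 9.08% and 7.95% of all genes, and none with matched cells. In batch 2 alone 3 of the 22 were called higher and 6 lower, against 9.68% and 9.27% of all genes. Eif4a1, the helicase that unwinds mRNA for translation, rose by 0.48 ± 0.04 over all P-negative cells and had a matched value of -0.01. Myc itself fell by 0.19 (SE 0.05, adjusted p = 0.0086) and did not pass with matched cells (adjusted p = 0.0765).

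**Figure D5:**
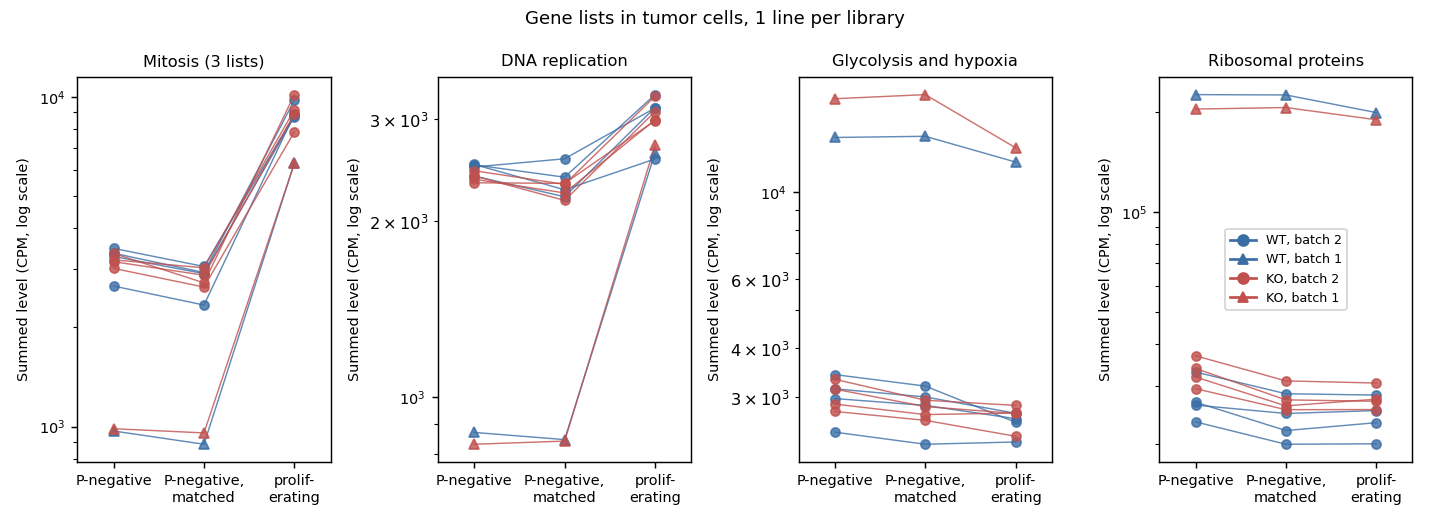
Summed CPM (log axis) of the mitosis lists, the DNA replication list, the glycolysis and hypoxia list and the ribosomal proteins in P-negative cells, in P-negative cells matched on UMIs and in proliferating cells, with 1 line per library and triangles for batch 1. For mitosis every line ends higher than it begins, from 970 to 3476 CPM up to 6299 to 10180 CPM. The glycolysis lines fall slightly, by 0.08 to 0.42 on the log2 scale from all P-negative to proliferating cells. Between matched cells of both classes the log2 ratio of the glycolysis list runs from -0.60 in KO B1 to 0.03 in KO 2+3. The matched proliferating cells of that ratio are not drawn.

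Of 17 E0771 and mesenchymal genes, 8 were called lower and 1 higher (median -0.15), against 7.95% and 9.08% of all genes. With matched cells 5 of 17 were called lower and 1 higher, against 8.26% and 6.51% of all genes. With matched cells in batch 2 alone 2 of 15 were called lower and 1 higher, against 7.81% of all genes tested in each direction. Vim, vimentin, was abundant in both classes (1503 to 3790 CPM against 1812 to 4606 CPM) and fell by 0.14 (SE 0.04), Cald1, an actin-binding protein, by 0.15 (SE 0.04), and S100a6, a calcium-binding protein, by 0.34 (SE 0.05), while Tagln2, an actin-bundling protein, rose by 0.22 ± 0.05. With matched cells Cald1 was called at -0.24, whereas Vim (-0.04, adjusted p = 0.680), S100a6 (-0.10, adjusted p = 0.356) and Tagln2 (0.17, adjusted p = 0.0566) did not pass, and with matched cells in batch 2 alone Vim was at 0.055 and S100a6 at 0.089. The tumor genes of the rule are given as description: their summed level had a log2 ratio of -0.17 to 0.20 between the classes, and Pvt1 made up 61.5% of their UMIs in batch 1 and 64.7% in batch 2.

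Markers of other cell types were summed in both classes. For the counts of calls below, the share of all genes called lower was 7.95%, and 8.26% with matched cells. The rule asked for 0 UMIs of 6 immune genes, so that low levels of immune markers were in part fixed by the choice of cells. The 12 macrophage markers summed to 32.4 to 64.7 CPM (median 39.3) against 47.6 to 84.7 CPM (median 54.0) in P-negative cells, and of 9 tested 1 was called lower, Cd74, the invariant chain of MHC class II (-1.03, adjusted p = 0.00813). Cd74 was at 0.48 in batch 1 (adjusted p = 0.828) and -1.41 in batch 2, and no macrophage marker passed the limit on low counts with matched cells. The 11 T cell markers summed to 1.23 to 20.5 CPM with none of 2 tested called, the 5 B cell markers to 0 to 27.6 CPM with none tested, and the 4 hemoglobin genes to 0 to 18.3 CPM. The 8 endothelial markers summed to 10.4 to 54.1 CPM, against 22.5 to 164 CPM in P-negative cells, with 3 of 4 tested called lower and none of 2 with matched cells. Pecam1, the endothelial gene CD31, had a log2 fold change of -0.67 (adjusted p = 0.0357) and a matched value of 0.05 (adjusted p = 0.930), and it did not pass in batch 2 alone (-0.26, adjusted p = 0.341). Epithelial keratins and adhesion genes summed to 28.0 to 182 CPM with none of 1 tested called, and of 4 pericyte markers tested 2 were called lower and none with matched cells.

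The 6 fibroblast genes summed to 91.4 to 456 CPM (median 242) in proliferating cells. In batch 1 most of the collagen UMIs counted below lay in a few barcodes, except among proliferating cells of KO B1. Of 5 tested, 4 were called lower in proliferating cells than in P-negative cells, against 7.95% of all genes. Col3a1 had a log2 fold change of -2.16 ± 0.35, Col1a2 one of -3.29 ± 0.46 and Col1a1 one of -0.87 ± 0.29 (adjusted p = 0.0314, lower in 6 of 10 libraries). The summed level in P-negative cells was 1009 CPM in WT B1 and 3048 CPM in KO B1, the 2 highest, and the median over libraries was 297 CPM. In KO B1, 5 of 55 P-negative cells held 1442 of the 1451 UMIs of Col1a1, Col1a2, Col3a1, Dcn and Lum, and in WT B1 4 of 95 held 703 of 713. Among proliferating cells 3 of 233 held 709 of 773 in WT B1 and 1 of 173 held 80 of 166 in KO B1. Each of these barcodes held at least 10 collagen UMIs beside its tumor UMIs, and the collagen values of batch 1 rest largely on them. With Aebp1 left out of the tumor rule, 90 of the 95 P-negative cells remained in WT B1 and 51 of the 55 in KO B1. Whether the collagen barcodes were among those that left was not tested. Such barcodes in batch 2 held a varying part of the collagen UMIs. In P-negative cells it ran from 906 of 1080 in WT 5 (14 of 2749 cells) to 170 of 797 in WT 1 (10 of 5549). In proliferating cells it ran from 266 of 342 in WT 5 (8 of 765) to 11 of 53 in KO 1 (1 of 425). In batch 2 alone Col1a1 was at -0.15 (adjusted p = 0.158), Col3a1 at -0.61 and Col1a2 at -1.63. Of the fibroblast genes, 3 of 5 were called lower with matched cells, and 0 of 3 with matched cells in batch 2 alone (median -0.13). The shares of all genes called lower there were 8.26% and 7.81%.

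By edgeR the signed log2 fold change between the classes was more often higher than lower in batch 1. An interaction of class and batch was called for 626 of 11294 genes (5.54%), for 429 with the higher log2 fold change in batch 1 (3.8%) and for 197 with the lower (1.74%). Of the 88 mitosis genes 55 were higher in batch 1 by this measure and none lower, and of the 50 replication genes 37 and none. Over all genes the balance depended on the method. DESeq2 called 74 higher and 85 lower, and edgeR without a limit on low counts called 1322 and 134. Within batch 1 alone 83 of 88 mitosis genes were called higher with a median of 3.33, and within batch 2 alone 87 of 88 with a median of 1.54, against 4.3% and 9.68% of all genes called higher. Over all genes 8.1% were called in batch 1 and 19.0% in batch 2. The replication list gave 37 of 50 with a median of 1.71 in batch 1, and 15 higher and 2 lower of 48 with a median of 0.18 in batch 2. Rrm2 differed between the batches by 2.57, Prc1 by 2.37, Atad2 by 1.86, Smc4 by 1.38 and Ube2c by 1.16 on the log2 scale. The batches differ in UMIs per cell and, per the labels, in the sequencing instrument, and depth and batch cannot be told apart here.

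Within the proliferating cells, KO was set against WT with batch as a covariate. Of 8489 genes 1 passed (0.0118%), and 279 had an unadjusted p under 0.05 in edgeR. The gene was Cpne5, which encodes copine 5, a calcium-dependent membrane-binding protein. It stood at 14.1 CPM in WT B1 and 138 CPM in KO B1 and between 0 and 1.12 CPM in the other 8 libraries. Both high libraries were those of batch 1, and in batch 2 the genotypes overlapped near 0. The log2 fold change was 3.05 ± 0.40 (adjusted p = 0.000846), yet KO B1 alone gave 336 of the 337 KO UMIs and WT B1 37 of the 39 WT UMIs. It was -0.50 without WT B1 and -0.49 without KO B1, and no gene was called without either, so the call rests on 1 library of each genotype.

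None of the gene lists above held a called gene between genotypes. The medians of the log2 fold changes were -0.04 for the 88 mitosis genes, -0.01 for the 47 replication genes tested, 0.04 for 27 glycolysis genes and 0.05 for 83 ribosomal proteins. Ago1, the gene deleted in the vessels, had 33 UMIs in the WT and 30 in the KO proliferating cells, or 4.99 and 5.48 CPM. Cxcr4, a chemokine receptor, had 4 and 6 UMIs and the corepressor Runx1t1 14 and 9, too few to compare.

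The log2 fold change of proliferating over P-negative cells itself differed between genotypes for 26 of 11294 genes (0.23%). It was higher in KO for 4 (0.0354%) and lower for 22 (0.195%), where lower can mean a steeper fall. No mitosis, replication or glycolysis gene was among them. The 5 largest falls were Lox (-6.64), Cxcl1 (-6.60), Mfap5 (-5.89), Hemgn (-5.45) and Gm32913 (-5.42), and the 4 rises were Olfr655 (6.88), Tspan15 (6.88), Draxin (5.13) and 2310039L15Rik (4.53). Of the collagens, Col1a2 was at -5.23, Col3a1 at -1.81 and Col1a1 at -0.996. Lox, the collagen cross-linker lysyl oxidase, stood at 50.8 CPM in P-negative cells of WT B1 and at 101 CPM in those of KO B1, and at 6.47 and 0 CPM in proliferating cells. All of these calls rest on batch 1, where a few barcodes carried most collagen UMIs of the P-negative cells. With Aebp1 left out of the tumor rule, 9 of 11247 genes were called by edgeR. Without WT B1, without KO B1 or in batch 2 alone, 0 genes were called by edgeR (479, 468 and 433 had an unadjusted p under 0.05), and DESeq2 called 0 (103).

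Tumor cells with at least 3 interferon UMIs, which the rule set aside, were compared in their proliferation level. There were 532 in WT and 732 in KO libraries. The 6 proliferation genes stood at 864 ± 83.9 CPM in them and at 775 ± 77.6 CPM in the other tumor cells (SD, n = 10 libraries). The level was higher in 8 of 10 libraries, by 88.9 on average (exact two-sided sign-flip permutation test, p = 0.0449, 0.180 after adjustment over 4 tests), which did not pass the adjustment. By the same exact test it was 123 in batch 2 alone (p = 0.0156) and 115 without KO B1 (p = 0.00781), the smallest of the unadjusted p with libraries left out. In batch 1 it was 42.9 in WT B1 and -141 in KO B1. By the exact test it was 65.7 with cells matched on UMIs (p = 0.127), 79.5 with Actb left out of the totals (p = 0.0723) and 72.1 without KO 1 (p = 0.0898).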

How the data were processed

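The authors deposited raw counts of UMIs for 31053 genes and all barcodes, made per the labels with Cell Ranger 7.1.0 on mm10. Their integration and clustering were not used. The cells, gene lists and tests were chosen with earlier results of these data known. Counts were summed per library and class without the 26 genes of the rule and tested in R 4.3.3 with edgeR 4.0.16 (quasi-likelihood, TMM, filterByExpr, library as a block, or batch for KO against WT, with Benjamini-Hochberg adjustment over all genes tested). Cells were matched on UMIs in bins of 0.25 on the log2 scale. Shares were compared by exact permutation within batch in Python 3.11.15, each library being 1 sample. Doublets were not removed and no caller was run, and free RNA was not subtracted.

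Named are the 10 largest rises and falls with a mean of at least 50 CPM (1 of the rises is not reported here), the 5 largest called genes in each direction between genotypes, up to 4 of the most abundant members of each list, the genes of the rule, and Ago1, Cxcr4 and Runx1t1. On simulated data at the sums of the contrast against P-negative cells (11294 genes, 200 changed by 1 on the log2 scale) 80% were recovered with 21 false calls, in KO against WT (8489 genes) 78.5% with 17, and in the genotype difference of the contrast (11294 genes) 60.5% with 4. Depth, from 595 to 4049 UMIs per cell by library, limits single-cell calls most in batch 2. Alternatives were DESeq2 1.42.0, no limit on low counts, no TMM, other thresholds, each batch, the pooled libraries, each library left out and the replicate number as a block. The batch difference, Mki67 alone, the totals without Actb, the tumor rule without Aebp1, the comparison within batch 1, the matched comparison in each batch and the share and level differences taken within batches were added after the data were seen. Promoters are from RefSeq (GRCm38.p6).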

Additional observations from a re-analysis of the deposited data

Results flagged for a closer look

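Some libraries lay far from the others of their genotype by Dixon's gap test, 12 in 46 groups checked, where chance gives about 1 group in 20. The share of proliferating cells was 59.2% in KO B1 and 54.7% in WT B1, each far above the other 4 of its genotype. The log2 ratio of proliferating to P-negative cells was likewise far from the rest in both batch 1 libraries, at 2.68 in KO B1 and 2.70 in WT B1 for the mitosis lists and at 1.70 and 1.59 for the replication list. For the macrophage markers it was 0.39 in WT B1. For the ribosomal proteins it was -0.055 in WT 4, far from the other WT libraries over both batches and within batch 2, and for the glycolysis list it was -0.076 in KO 2+3 among the KO libraries of batch 2. Cpne5 stood at 138 CPM in KO B1 and 14.1 CPM in WT B1.

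The contrast against P-negative cells differed between genotypes by the interaction term for Col3a1 (-1.81), Col1a1 (-0.996), Col1a2 (-5.23), Lox (-6.64), Cxcl1 (-6.60), Mfap5 (-5.89), Hemgn (-5.45) and Gm32913 (-5.42), which were lower in KO, and for Olfr655 (6.88), Tspan15 (6.88), Draxin (5.13) and 2310039L15Rik (4.53), on the log2 scale. No gene was called without WT B1 or without KO B1. Fitted changes of genes with a sum of 0 in a class depend on the prior count and are no bounds.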

How the results depend on the processing

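The difference in share changed sign in batch 2 alone (-0.340 points), thinned to 1000 UMIs (-0.492) and over all cells (-1.08), and with single libraries left out it ran from -9.50 to 9.79, or from -0.340 to 2.44 when taken within batches, with no p under 0.05. For the proliferation level in CPM the values were -11.5 in batch 2 alone and -1.70 with at least 500 genes, -21.6 to 38.2 with libraries left out and -11.5 to 40.1 within batches, and for Mki67 -1.51 to 4.52. The interferon difference was 123 in batch 2 alone, 65.7 with matched cells, 79.5 without Actb in the totals and 72.1 to 115 with libraries left out.

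Against P-negative cells, calls numbered 1232 with matched cells (1106 in batch 2, 549 in batch 1), 766 in batch 1 alone and 811 without the library block, and 1613 to 2222 with libraries left out. Without WT 1, WT 4, WT 5 or KO 2+3 the median of all genes moved from -0.01 to between -0.10 and -0.11, and calls split 603 to 1499, 667 to 1555, 592 to 1561 and 586 to 1605 higher to lower, against 1025 to 898. The split was 673 to 763 by DESeq2, 697 to 821 without a limit on low counts and 543 to 689 with matched cells. It was 550 to 261 without the library block and 779 to 584 without barcodes above the 95th percentile of UMIs. KO against WT gave 0 calls by DESeq2, in batch 2 alone and without a batch term, 17 without a limit on low counts, 2 without the pooled libraries and 0 to 2 with libraries left out. The genotype difference of the contrast gave 0 by DESeq2 and in batch 2 alone, 9 without Aebp1, 9 with matched cells and 0 to 31 with libraries left out. The batch difference gave 159 by DESeq2 (74 with a higher and 85 with a lower log2 fold change in batch 1) and 1456 without a limit on low counts (1322 and 134), against 429 and 197.

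Replicate numbers did not pair the batch 2 libraries (correlations -0.0952 and -0.185), and with the replicate block the differences were 2.31 points (p = 0.5, exact), 22.6 and 0.649 CPM (each p = 1, exact) and 0 genes called. For named genes 1390 of 1579 values kept direction and side, 168 lost significance and 21 changed sign: Cdkn1b in batch 1 (-0.14, matched -0.26), Eif4a1 with matched cells (-0.012, batch 2 -0.038), Rps25 (-0.11, -0.12), Pecam1 (0.055, 0.12), Cd74 in batch 1 (0.48), and with matched cells in batch 2 Gapdh (0.0051), Vim (0.055), S100a6 (0.089), Acta2 (0.075), Rpl13 (0.12) and Rpl29 (0.00799). With libraries left out Cpne5 ran from -0.50 to 3.15, and in the genotype difference Tspan15 from -3.30 to 10.68 and Hemgn from -6.51 to 0.29. The causes were not tested.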
